A study of Mus musculus with 8 samples.

Results

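The genes described here carry metabolites across the inner mitochondrial membrane, import proteins into mitochondria, or set the shape of the mitochondrial network. They were taken by symbol from the deposited gene table: every gene of the Slc25a, Tomm, Timm, Mfn and Vdac families with a number in its symbol, together with Opa1, Dnm1l, Fis1, Mff, Immt, Chchd3, Phb, Phb2 and Samm50. This gave 60 genes, of 28662 transcripts in the table and 10588 that were tested. The symbols come from a table that already held expressed genes alone, so all 60 passed the limit of 10 RPM (a gene's normalized counts relative to the total of the mouse) in at least one mouse, and 54 passed it in every mouse. The 6 that did not pass it in every mouse were Slc25a5, Slc25a26, Slc25a30, Slc25a32, Slc25a40 and Vdac3, of which Slc25a26 and Slc25a40 are among the called genes below.

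Poly(A)+ RNA from right cortex was sequenced from 4 bigenic and 4 nontransgenic C57BL/6 mice. Bigenic mice carried Camk2a-tTA, a tetracycline-controlled transactivator driven by a promoter active mainly in forebrain excitatory neurons, and the ΔNLS-hTDP-43 transgene that it switches on. ΔNLS-hTDP-43 is human TDP-43, the RNA-binding protein of amyotrophic lateral sclerosis and frontotemporal lobar degeneration inclusions, with a defective nuclear localization signal. Doxycycline, which keeps the transgene off, was withdrawn at 28 days of age and RNA was taken 10 days later, with nontransgenic mice on the same diet. The nontransgenic mice lack both transgenes, so effects of tTA and of ΔNLS-hTDP-43 cannot be told apart. The whole cortex was sampled, while the promoter drives the transgene in a part of its cells. Animals are named here A, B, C and D (bigenic) and E, F, G and H (nontransgenic), and values per mouse follow that order. About 15.2, 10.6, 23.5 and 31.9 M reads lay on genes in mice A to D, and 22.5, 20.2, 23.3 and 29.0 M in mice E to H. Values are normalized counts, which are reads scaled per mouse by the authors and rounded. The worth of 3 reads was between 1.94 and 6.20 normalized counts, and the lowest value of any of the 60 genes was 105.

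Mouse B, which had the fewest reads, stood apart from the other bigenic mice, and limma's array weights gave it a weight of 0.0844 against 0.461 to 3.06 for the other 7. It was the highest bigenic mouse for 24 of the 60 genes and the lowest for 29. These are 40.0% and 48.3% of the set, compared with 43.1% and 38.4% of all genes tested. The effect of leaving it out is given beside the results that change most. A transcript without a symbol (uc999vvf.1) was picked for its rise, the largest of such transcripts, and so cannot check the labels. It had 35890 ± 5703 normalized counts in bigenic and 29.0 ± 34.5 in nontransgenic mice (mean ± SD, n = 4 each). Endogenous Tardbp, the mouse gene for TDP-43, had 5180 ± 249 against 6538 ± 420 normalized counts.

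Most mitochondrial proteins are encoded by nuclear genes and made outside mitochondria, so nearly every mitochondrial protein has to be imported. Precursors pass the outer membrane through the TOM complex, in which Tomm40 forms the pore and Tomm22 and Tomm70a act as receptors. Precursors with a presequence then go through the TIM23 complex, and carrier proteins are escorted by the small Tim chaperones to the TIM22 complex. The carriers themselves, the SLC25 family, exchange ADP for ATP, bring in phosphate, and move amino acids, nucleotides and cofactors. Fusion by Mfn1, Mfn2 and Opa1 and fission by Dnm1l with its adaptors Mff and Fis1 set how long and connected mitochondria are, and neurons depend on both to supply distant synapses with ATP.

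Of the 60 genes, 13 were higher and 14 were lower in bigenic mice at an adjusted p-value below 0.05 (limma on log2(normalized count + 1), Benjamini-Hochberg over all 10588 genes tested). The 13 upregulated genes are 21.7% of the set, near the 20.5% of all genes tested that were higher, and the 14 downregulated genes are 23.3%, compared with 15.4% of all genes. Either direction was called for 45.0% of the set and for 35.9% of all genes. The counts by role below are to be read beside these shares of all genes. Bigenic and nontransgenic values did not overlap for 29 of the 60 genes (48.3%), compared with 39.0% of all genes. The median log2 fold change of the set was 0.05, beside 0.03 for all genes tested, and its median absolute value was 0.33, beside 0.25. Called genes differed by 0.27 to 1.16 in absolute value on the log2 scale, with a median of 0.55, and the falls reached -0.77. RNA was taken from bulk tissue, in which fewer cells of a type and less RNA per cell cannot be told apart. Without mouse B, 16 genes were higher and 17 lower, where 25.3% of all genes were higher and 20.2% were lower, and the 27 genes called with it were called in the same direction.

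**Figure D1:**
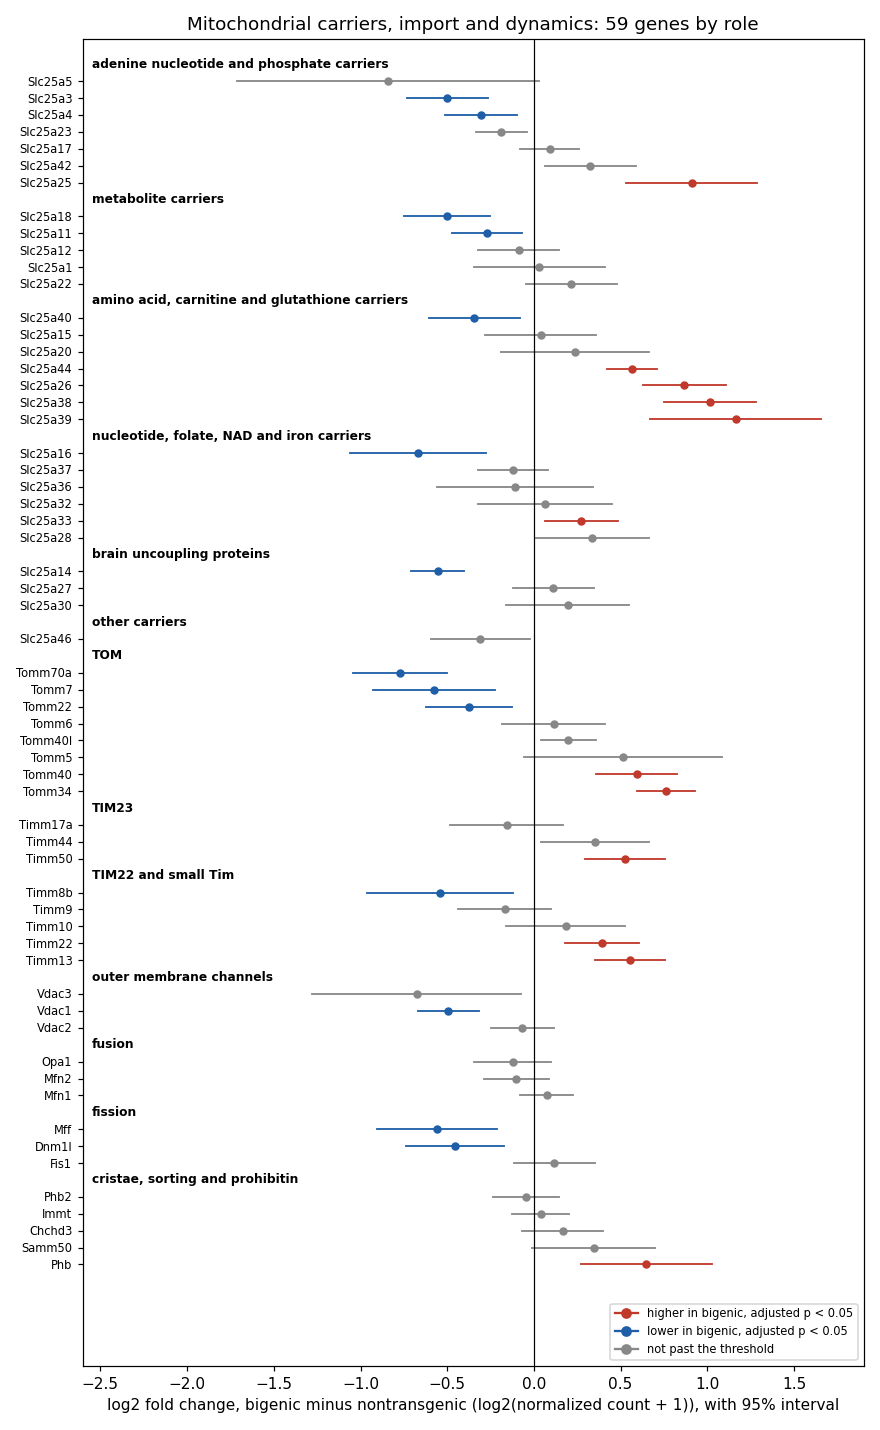
Log2 fold change (bigenic minus nontransgenic, x axis) of 59 of the 60 genes, grouped by role, with points for the estimate and lines for the 95% interval from limma. The 12 genes in red were higher, the 14 in blue were lower and the 33 in grey were not past the threshold, and most roles hold genes on both sides of 0.

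The marker genes of cell types in these libraries differed between the groups as well, and the gene with the lowest adjusted p-value is named for each list. Their counts are to be read beside the 20.5% higher and 15.4% lower of all genes tested (25.3% and 20.2% without mouse B). Of 8 neuronal markers tested, 5 were lower and 1 was higher (Rbfox3, 0.30), with a median of -0.32 on the log2 scale and Syt1 at -0.44. Slc17a7 (0.15) and Gad2 (-0.32) were not called. The summed level of the neuronal markers ran from 106844 to 140385 normalized counts in bigenic and from 134815 to 153138 in nontransgenic mice, with Snap25 and Syt1 as the most abundant. Astrocyte markers were lower for 4 of 8 (5 without mouse B), with a median of -0.24 and Gja1 at -0.43. Their sums, most of which came from Slc1a2 (-0.25), were 123470 to 143059 against 150668 to 162213. Microglial markers were lower for 5 of 7, with Cx3cr1 at -0.56, with sums of 3833 to 4757 against 5051 to 5902. Oligodendrocyte markers were higher for 1 of 8 (Mobp, 0.60), with sums of 63759 to 82958 against 62660 to 79188. Endothelial markers were lower for 1 of 6 (Flt1, -0.26), with sums of 3592 to 4201 against 3997 to 5089. Of 8 choroid plexus markers, 4 were tested and all 4 were higher, with F5 at 2.71 and sums of 8385 to 19459 against 363 to 1203. Ttr made up most of these sums in bigenic mice, with 7741 to 18520 normalized counts and the largest log2 fold change of the 4 (4.34). Ttr alone passed the RPM limit in nontransgenic mice. F5 (22 to 36 normalized counts in nontransgenic mice), Kl (55 to 99) and Clic6 (23 to 46) passed it in bigenic mice only. For F5 and Clic6 this was mouse A alone (251 and 260). Without a rise F5, Kl and Clic6 would not have been tested, so their count as higher was set by the filter. No marker tested was at 0 in any mouse. The part of these marker differences in the results for the mitochondrial genes was not tested.

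Promoter sequence is shown for called genes picked for their motif, 6 for the letters of an ETS site and Slc25a25 for a cAMP response element. The ETS site is a motif bound by the GABP factor that is well known at promoters of nuclear genes for mitochondrial proteins. RefSeq promoters (GRCm38.p6, 250 bases before to 50 after each gene's start) were matched for 49 of the 60 genes. Each run below is 30 bases, written 5′ to 3′ on the strand of its gene, with the motif in capitals. The motif is CCGGAAG (or CTTCCGG where it lies on the opposite strand) in the first 6, and the cAMP response element TGACGTCA in the last.
Tomm70a (lower, chr16:57121622-57121651, plus strand): ggccttctgaccCCGGAAGtggttctcccc
Vdac1 (lower, chr11:52360734-52360763, plus strand): ccgctctgtgtgCCGGAAGctcccctcccc
Slc25a3 (lower, chr10:91124125-91124154, minus strand): gcactagcagggCCGGAAGggctggggttg
Slc25a4 (lower, chr8:46211175-46211204, minus strand): cacccctagctcCCGGAAGcgtcttcgccc
Slc25a38 (higher, chr9:120110324-120110353, plus strand): tacgctatgtcaCCGGAAGcgggatctcac
Tomm34 (higher, chr2:164071191-164071220, minus strand): cttgagcccactCTTCCGGccgcttagctc
Slc25a25 (higher, chr2:32424198-32424227, minus strand): tctgcaagcagTGACGTCAgtcctgatctt

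On either strand, CCGGAAG was found in the promoters of 18 of the 49 genes (36.7%), compared with 1455 of 7448 tested genes with a promoter (19.5%). Among the downregulated genes it was found for 7 of 13 (Dnm1l, Slc25a3, Slc25a4, Timm8b, Tomm22, Tomm70a and Vdac1), among the upregulated genes for 3 of 10 (Slc25a25, Slc25a38 and Tomm34), and among those not called for 8 of 26. Both groups of changed genes thus hold the letters. The E-box CACGTG was found for 9 of the 49 genes (18.4%) and 12.5% of tested genes, and the NRF1 core GCGCATGC for 2 (4.08%) and 6.35%. The cAMP response element was found for 2 genes, Slc25a25 and Slc25a36, and for 3.91% of tested genes. The short CCAAT box was found for 26 (53.1%) and 43.3%, and TATAAA for 3 (6.12%) and 8.19%. A match describes the letters alone and not a bound site.

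Of the 7 carriers of ADP, ATP, phosphate and related nucleotides, Slc25a3 and Slc25a4 were lower, Slc25a25 was higher and 4 were not called. Slc25a4, the main ADP/ATP carrier of excitable tissue, had 6442, 7559, 5998 and 5819 normalized counts in bigenic mice and 8075, 7956, 8402 and 7336 in nontransgenic mice. Mouse B lay within the nontransgenic range and the other bigenic mice below it, and the log2 fold change was -0.31 ± 0.09 (SE; limma adjusted p = 0.0284). Without mouse B it was -0.38 (limma adjusted p = 0.000787), and leaving out any of A, C, D, E, F or G ended the call, with limma adjusted p up to 0.0860. Slc25a3, which brings in the phosphate for ATP synthesis, had 4353, 3483, 4757 and 4416 against 6284, 6083, 6267 and 5299. The groups did not overlap, and the mean fell by 28.9% (log2 fold change -0.50 ± 0.11, limma adjusted p = 0.00550). Slc25a25, a calcium-regulated ATP-Mg/phosphate carrier, had 1704, 2802, 1932 and 1914 against 982, 1104, 933 and 1399. All bigenic values lay above the nontransgenic ones (log2 fold change 0.91 ± 0.17, limma adjusted p = 0.00284).

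Its paralog Slc25a23 had the opposite sign (-0.19 ± 0.07) and missed the threshold with a limma adjusted p of 0.0515, although its groups did not overlap. Without mouse B it passed (-0.16, limma adjusted p = 0.0364). The other ADP/ATP carrier, Slc25a5, had 328, 153, 695 and 571 normalized counts against 756, 684, 702 and 566. It varied widely among bigenic mice, with mice A and B low and mice C and D inside the nontransgenic range (log2 fold change -0.84, 95% interval -1.71 to 0.03). Without mouse B it was -0.41 (limma adjusted p = 0.133), and it passed in the fit without mouse C alone (limma adjusted p = 0.0366). The coenzyme A carrier Slc25a42 (0.32, limma adjusted p = 0.0551) and the peroxisomal carrier Slc25a17 (0.09) did not pass, the first of them passing without mouse A (0.0494) or mouse H (0.0377).

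Among carriers of metabolites, 2 of 5 were lower and none was higher. Slc25a18, a glutamate carrier known from astrocytes, had 546, 496, 651 and 673 normalized counts against 805, 878, 889 and 758. The groups did not overlap, and the mean fell by 28.9% (log2 fold change -0.50 ± 0.11, limma adjusted p = 0.00722). The astrocyte markers were lower as well (median log2 fold change -0.24), and their part in this was not tested. Slc25a22, the paralog of Slc25a18, had 2572, 3900, 2877 and 2871 against 2655, 2599, 2666 and 2476, a log2 fold change of 0.22 (0.09 without mouse B) that did not pass. Slc25a11, the oxoglutarate/malate carrier of the malate-aspartate shuttle, had 973, 1175, 954 and 901 against 1223, 1197, 1230 and 1157. Mouse B overlapped the nontransgenic range, and the call (-0.27 ± 0.09, limma adjusted p = 0.0419) held only in the fit that left that mouse out (-0.35, limma adjusted p = 0.00102) and was lost, with limma adjusted p up to 0.109, when any other mouse was left out. The aspartate/glutamate carrier Slc25a12 of the same shuttle had a log2 fold change of -0.09 (95% interval -0.32 to 0.14), and the citrate carrier Slc25a1 had 0.03 (-0.35 to 0.41).

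Carriers of amino acids, S-adenosylmethionine and glutathione held the 2 largest rises of the 60 genes, with 4 of 7 higher and 1 lower. Slc25a39, needed for glutathione import, had 1150, 2405, 1120 and 1162 normalized counts against 561, 615, 628 and 658. Mouse B was far above the other bigenic mice, yet each bigenic mouse exceeded every nontransgenic mouse, and the rise was 2.24-fold (log2 fold change 1.16 ± 0.22, limma adjusted p = 0.00319) and 0.90 on the log2 scale without mouse B. Its paralog Slc25a40 had 251, 201, 235 and 259 against 315, 300, 323 and 262. Slc25a40 was lower without overlap (-0.34 ± 0.12, limma adjusted p = 0.0447), by a margin of few counts, and the call was lost when any mouse other than B or H was left out, with limma adjusted p up to 0.126. In nontransgenic mice Slc25a39 had 223 and Slc25a40 had 108 normalized counts per kb of exon.

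Slc25a38, the glycine carrier of heme synthesis, had 515, 591, 490 and 504 normalized counts against 240, 226, 261 and 315. It rose 2.02-fold, without overlap and with little spread (1.02 ± 0.12, limma adjusted p = 0.000270). Slc25a26, which brings in S-adenosylmethionine for methylation inside mitochondria, had 363, 385, 330 and 363 against 193, 218, 206 and 173, a 1.82-fold rise (0.87 ± 0.11, limma adjusted p = 0.000340). Slc25a44, a carrier of branched-chain amino acids, had 3526, 3658, 3676 and 3720 against 2405, 2353, 2522 and 2569. The spread was small in both groups and the rise was 1.48-fold (0.57 ± 0.07, limma adjusted p = 0.000238). The carnitine/acylcarnitine carrier Slc25a20 (0.24; 0.03 without mouse B) and the ornithine carrier Slc25a15 (0.04) did not pass. In Slc25a20, mouse B had 414 normalized counts and the other bigenic mice 208 to 251, close to the nontransgenic 219 to 236.

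Of the carriers of nucleotides, cofactors and iron, 2 of 7 were higher and 1 was lower. Slc25a33, a pyrimidine nucleotide carrier, had 1266, 984, 1020 and 1031 normalized counts against 839, 855, 913 and 939, which did not overlap (0.27 ± 0.09, limma adjusted p = 0.0467). This call was kept in 1 of 8 fits that left out a mouse, that without mouse B (limma adjusted p = 0.0138), and was lost in the others (0.0864 without mouse A). Slc25a16, linked to coenzyme A in mitochondria, had 895, 484, 824 and 759 against 1310, 1186, 1103 and 1013. Mouse B was the lowest, and the other bigenic mice were also below every nontransgenic mouse (-0.67 ± 0.18, limma adjusted p = 0.0156). Without mouse E the limma adjusted p was 0.0515. The mitoferrins, which bring in iron, did not pass, with log2 fold changes of 0.34 for Slc25a28 and -0.12 for Slc25a37, nor did the folate carrier Slc25a32 (0.06) or the pyrimidine carrier Slc25a36 (-0.11).

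Among the brain uncoupling proteins, Slc25a14 (UCP5) had 763, 749, 796 and 817 normalized counts against 1142, 1142, 1123 and 1183. The groups were tight and far apart, and the mean fell by 31.9% (-0.55 ± 0.07, limma adjusted p = 0.000321). Slc25a27 (UCP4) had a log2 fold change of 0.11 (95% interval -0.12 to 0.34), and Slc25a30 had 0.19 (-0.16 to 0.55). Slc25a46, an outer membrane member of the family that takes part in network dynamics, had 1939, 1371, 2099 and 1945 against 2397, 2221, 2347 and 2048, and did not pass (-0.31, limma adjusted p = 0.0858; -0.17 without mouse B). Over all 30 carriers, 7 were higher, 7 were lower and 16 were not called, where 20.5% of all genes tested were higher and 15.4% lower.

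**Figure D2:**
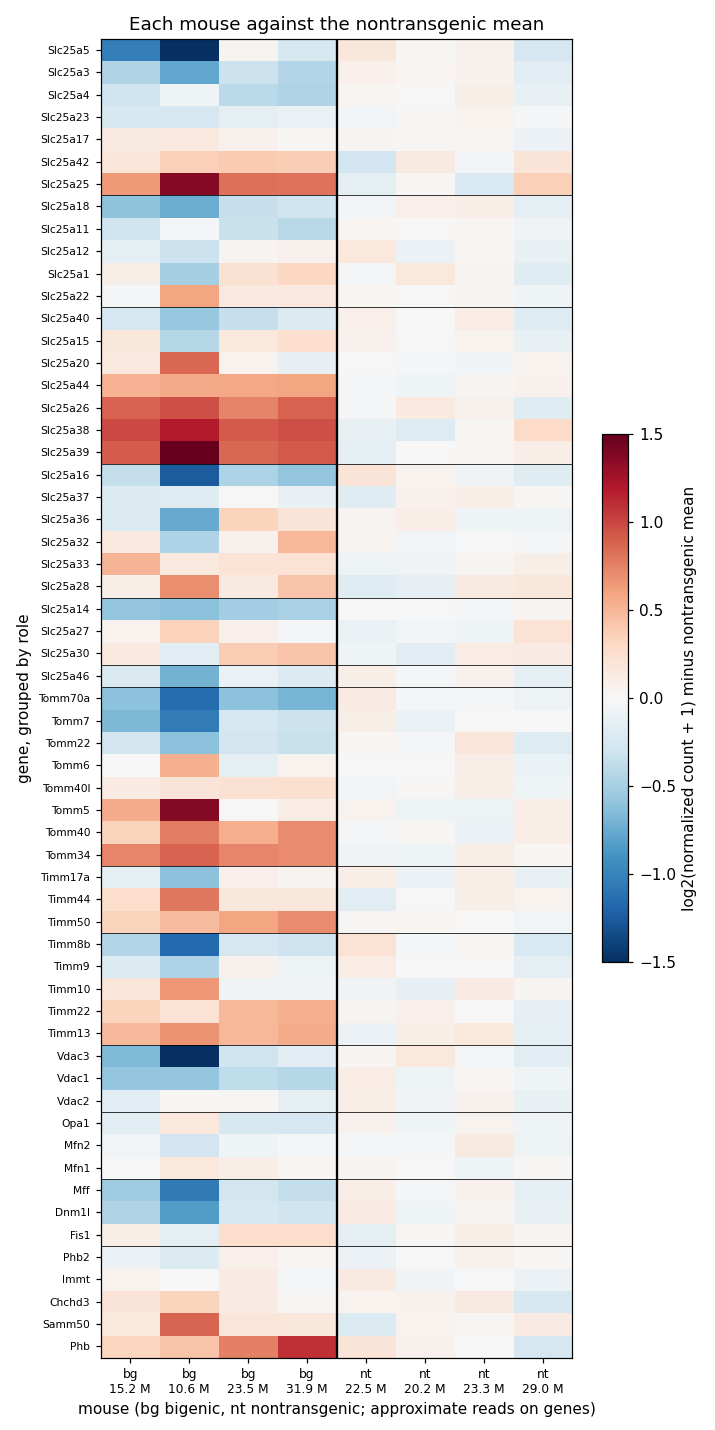
Log2(normalized count + 1) of 59 of the 60 genes (rows, grouped by role) in each mouse (columns, bigenic A to D, then nontransgenic E to H, labelled bg and nt with their approximate reads), as the difference from the nontransgenic mean. Colours saturate at the ends of the scale, and mouse B, with 10.6 M reads, shows the strongest colours among the bigenic mice for many genes, Slc25a5 and Vdac3 among them.

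The 8 Tomm genes, which hold subunits of the TOM complex, the pore paralog Tomm40l and the cytosolic Tomm34, changed in both directions, with 3 lower and 2 higher. Tomm70a, the receptor for carrier precursors, had 3617, 2496, 3627 and 3431 normalized counts against 6054, 5448, 5489 and 5262. Every bigenic mouse was well below every nontransgenic mouse, the mean fell by 40.8%, and this was the strongest fall among the called genes (-0.77 ± 0.12, limma adjusted p = 0.00120; -0.64 without mouse B). Tomm22, the central receptor, had 452, 358, 451 and 434 against 558, 541, 622 and 477 (-0.37 ± 0.11, limma adjusted p = 0.0257). The groups did not overlap, but the call was lost without mouse E, F or G (limma adjusted p of 0.0675, 0.0615 and 0.0828). Tomm7, a small subunit that takes part in TOM assembly and in holding Pink1, had 908, 697, 1203 and 1160 against 1534, 1353, 1452 and 1454. The mean fell by 31.5% without overlap (-0.58 ± 0.16, limma adjusted p = 0.0177; 0.0532 without mouse E).

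The pore gene Tomm40 had 685, 926, 794 and 886 normalized counts against 533, 548, 511 and 579. It rose 1.51-fold without overlap (0.59 ± 0.10, limma adjusted p = 0.00217). Tomm34, a cytosolic co-chaperone that binds precursors before import, had 2244, 2502, 2244 and 2207 against 1302, 1297, 1446 and 1381. It had the lowest adjusted p-value of the 60 genes (0.76 ± 0.07, limma adjusted p = 9.23e-05). The pore paralog Tomm40l had 1088, 1144, 1168 and 1180 against 966, 1011, 1059 and 955, without overlap, and just missed the threshold (0.20 ± 0.07, limma adjusted p = 0.0513; 0.0308 without mouse B and 0.0481 without mouse A). The small subunits Tomm5 (0.51; 0.23 without mouse B) and Tomm6 (0.11) did not pass, and for Tomm5 mouse B had 707 normalized counts where the other bigenic mice had 273 to 402.

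Within the inner membrane translocases, the called subunits were higher with the exception of Timm8b. Timm50, the receptor of TIM23, had 299, 329, 358 and 388 normalized counts against 241, 242, 236 and 230. The nontransgenic mice hardly varied and the rise was 1.44-fold (0.53 ± 0.10, limma adjusted p = 0.00398). Timm44, which ties the import motor to the channel, had 893, 1288, 837 and 835 against 667, 744, 791 and 772. It did not overlap but did not pass (0.35, limma adjusted p = 0.0727), and it passed without mouse B (0.20, limma adjusted p = 0.0482). The channel subunit Timm17a had a log2 fold change of -0.16 (95% interval -0.48 to 0.17). Timm22, the channel of the carrier translocase, had 580, 534, 650 and 664 against 474, 487, 461 and 421 (0.39 ± 0.10, limma adjusted p = 0.0106), without overlap.

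The small Tim chaperones did not move together. Timm13 had 848, 964, 857 and 886 normalized counts against 567, 640, 674 and 545, a rise of 1.47-fold without overlap (0.55 ± 0.09, limma adjusted p = 0.00157). Timm8b had 1228, 747, 1398 and 1348 against 1949, 1642, 1706 and 1428. Its mean fell by 29.8% (-0.54 ± 0.19, limma adjusted p = 0.0467), with mouse B lowest, and without mouse B the log2 fold change was -0.34 (limma adjusted p = 0.0166). The call was lost without mouse A, E, F or G, with limma adjusted p up to 0.125. The partners Timm9 (-0.17) and Timm10 (0.18) did not pass.

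**Figure D3:**
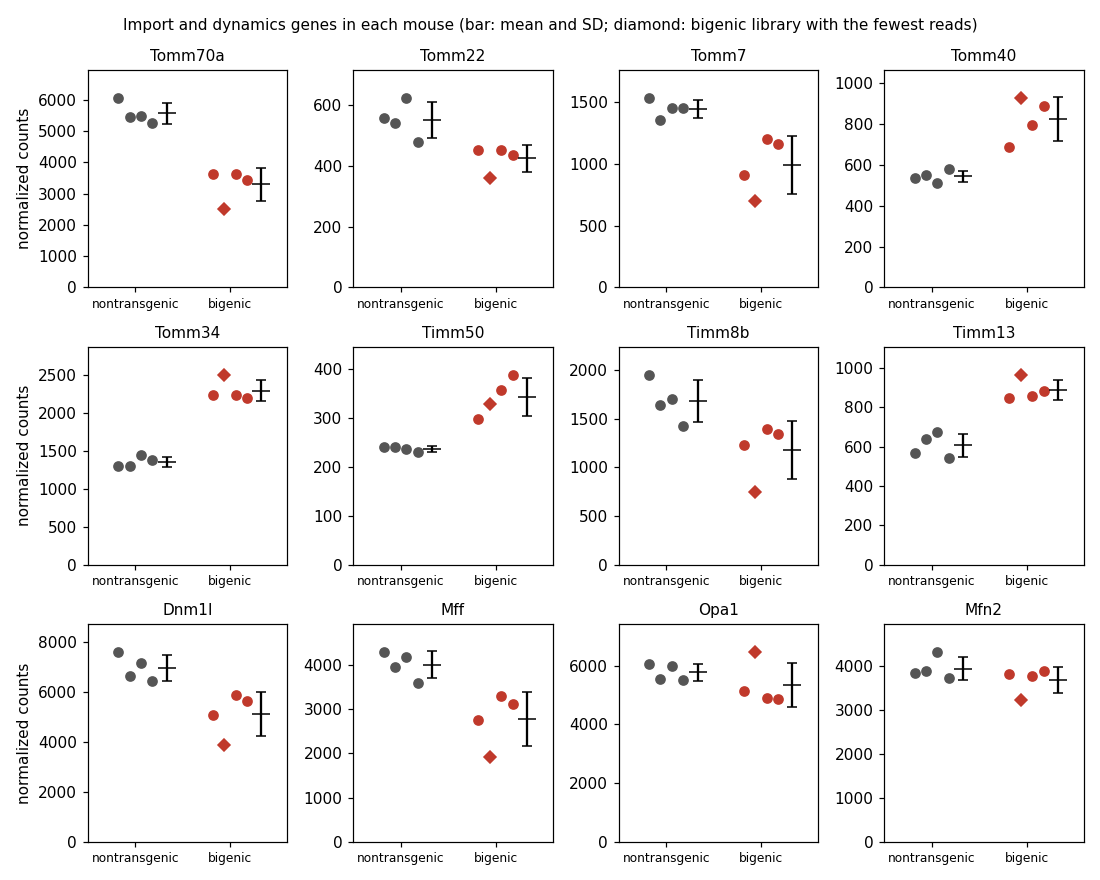
Normalized counts (y axis, from 0) of 12 import and dynamics genes in each mouse, with nontransgenic mice in grey and bigenic mice in red, the diamond for mouse B, and horizontal lines with bars for the mean and SD. Tomm70a, Dnm1l and Mff show bigenic mice below every nontransgenic mouse, Tomm34 and Timm50 above, and Opa1 and Mfn2 show overlap.

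The channels of the outer membrane let metabolites through to the carriers, and Vdac1 is the main one in brain. Vdac1 had 5310, 5288, 6068 and 5900 normalized counts against 8549, 7496, 8125 and 7597. The mean fell by 29.0%, without overlap and with or without mouse B (-0.49 ± 0.08, limma adjusted p = 0.00126; -0.46 without). Vdac2 had a log2 fold change of -0.07 (95% interval -0.25 to 0.11). Vdac3 had 202, 105, 260 and 286 against 329, 357, 312 and 284, and did not pass (-0.68, limma adjusted p = 0.0758), although it did without mouse B (-0.37, limma adjusted p = 0.0374) or without mouse D (limma adjusted p = 0.0413).

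Of the fission genes, the GTPase and an adaptor were lower. Dnm1l, which constricts mitochondria, had 5064, 3880, 5879 and 5645 normalized counts against 7574, 6639, 7148 and 6434, and its mean fell by 26.4% (-0.46 ± 0.13, limma adjusted p = 0.0192). Mff, which recruits it to the outer membrane, had 2757, 1911, 3285 and 3109 against 4274, 3955, 4168 and 3591, and its mean fell by 30.8% (-0.56 ± 0.15, limma adjusted p = 0.0192). Mouse B was the lowest for both genes, and neither overlapped. Without mouse B the log2 fold changes were -0.33 and -0.39 with limma adjusted p of 0.00473 and 0.00263. Both calls were lost without mouse E (0.0604 and 0.0581) or mouse G (0.0554 and 0.0555). The other adaptor, Fis1, had 1285, 1090, 1448 and 1448 against 1090, 1217, 1282 and 1244, and was not called (0.12, 95% interval -0.12 to 0.35; 0.21, limma adjusted p = 0.0471 without mouse B).

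None of the fusion genes passed. Opa1, the inner membrane fusion GTPase and the one with the most normalized counts, though not per kb of exon (733 in nontransgenic mice against 757 for Mfn2), had 5142, 6450, 4890 and 4859 normalized counts against 6047, 5534, 6003 and 5507. Mouse B was the highest of all 8 and the other bigenic mice were below every nontransgenic mouse. Its log2 fold change was -0.12 (95% interval -0.34 to 0.10), and without mouse B it was -0.22 (limma adjusted p = 0.0127). The outer membrane fusion proteins gave -0.10 (-0.29 to 0.08) for Mfn2 and 0.07 (-0.08 to 0.23) for Mfn1. The 95% intervals of Dnm1l (-0.74 to -0.17) and Mff (-0.90 to -0.21) overlapped those of Opa1 and Mfn2 and not that of Mfn1. The difference between fusion and fission genes was not tested.

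Among genes of cristae, outer membrane sorting and the prohibitin complex, 1 of 5 passed. Phb had 394, 426, 531 and 673 normalized counts against 361, 330, 313 and 265, and was higher without overlap (0.65 ± 0.17, limma adjusted p = 0.0148). Its obligate partner Phb2 had 719, 660, 804 and 781 against 720, 762, 800 and 775, with a log2 fold change of -0.05 (95% interval -0.24 to 0.14). Immt and Chchd3, subunits of the MICOS complex at cristae junctions, gave 0.04 (-0.13 to 0.20) and 0.17 (-0.07 to 0.40). Samm50, which inserts barrel proteins into the outer membrane, had 1417, 2316, 1438 and 1422 against 1101, 1320, 1285 and 1384. Its groups did not overlap, but mouse B stood far above the rest and the test was not passed (0.34, limma adjusted p = 0.117; 0.17 and 0.107 without mouse B).

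Other genes of the same processes were taken from lists outside the families. Their counts and median log2 fold changes, list by list, are to be read beside the 20.5% higher, the 15.4% lower and the median of 0.03 of all genes tested. Of 16 tested genes of import and processing, 3 were higher and 2 lower (median 0.06). The import motor parts Grpel1 (0.49 ± 0.08, limma adjusted p = 0.00170) and Hspa9 (0.37 ± 0.06, limma adjusted p = 0.00179) rose. Chchd4, which oxidizes intermembrane space precursors, fell by 0.69 on the log2 scale (limma adjusted p = 0.00906), and the peptidase gene Mipep fell by 0.47 (limma adjusted p = 0.0151). Of 11 genes of cristae and inner membrane proteases, 4 were higher and none was lower (median 0.11), with the protease gene Clpp at 0.30 and Chchd10, a gene mutated in amyotrophic lateral sclerosis, at 0.38 (limma adjusted p of 0.0244 and 0.0283).

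Of 13 regulators of dynamics and the outer membrane, 3 were higher and 4 lower (median -0.28). Without mouse B 5 were higher and 5 lower, where 25.3% of all genes were higher and 20.2% lower. Mtfr1, a fission regulator, had 385, 337, 363 and 423 normalized counts against 186, 185, 184 and 158 (1.07 ± 0.11, limma adjusted p = 0.000121). Mtfp1, which also promotes fission, moved the other way, with 488, 515, 554 and 510 against 810, 821, 884 and 910 (-0.73 ± 0.08, limma adjusted p = 0.000156). The mitophagy kinase gene Pink1 was higher (0.28) and Gdap1, a Charcot-Marie-Tooth disease gene, was lower (-0.45), with limma adjusted p of 0.0206 and 0.000996. The other called genes of this list were Bnip3l (-0.63) and Park2 (-0.57), both lower, and Mul1 (0.32), which was higher. Their limma adjusted p were 0.00529, 0.0383 and 0.0212, and they were named after their values were seen. Of 7 genes for mitochondrial transport along microtubules, 3 were higher and 1 lower (median 0.30). The kinesin gene Kif5b had 18353, 19365, 20529 and 19859 against 11290, 10862, 11424 and 10944 (0.81 ± 0.06, limma adjusted p = 3.47e-05), and the adaptor Trak2 rose by 0.70 (limma adjusted p = 0.00154). The outer membrane GTPase gene Rhot1, to which the adaptor binds, was lower (-0.42, limma adjusted p = 0.00840).

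Of 11 other inner membrane transporters, 2 were higher and 4 lower (median -0.30). Without mouse B 5 were lower, where 20.2% of all genes were lower. Sfxn3, a sideroflexin gene, rose by 0.45, whereas Mtch1 and Mcart1 had log2 fold changes of -0.43 and -0.30 (limma adjusted p of 0.00268, 0.00235 and 0.0144). Of 7 regulators of mitochondrial biogenesis, 3 were higher and none was lower (median 0.05). Ppargc1b, a coactivator, had 441, 825, 423 and 467 normalized counts against 242, 255, 176 and 316 (1.09 ± 0.23, limma adjusted p = 0.00576), and Yy1 rose by 0.45 (limma adjusted p = 0.0183). Ppargc1a, Nrf1, Gabpa and Tfam were not called, with log2 fold changes of -0.13, 0.02, -0.19 and 0.05, and were added here after their values were seen.

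Upregulated and downregulated members differed in level and base composition. In nontransgenic mice the downregulated genes had a median of 956 normalized counts per kb of exon, the upregulated genes 145 and those not called 385. Over all genes tested the medians were 357 for those lower and 196 for those higher. The most abundant of the 60 genes per kb was Slc25a4 with 3375 normalized counts per kb, followed by Timm8b with 3190 and Vdac1 with 3031, all called lower, and the least abundant was Slc25a42 with 59.3. As a share of all normalized counts, the 60 genes together made up 0.427% to 0.468% in bigenic and 0.465% to 0.502% in nontransgenic mice.

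The exons of the 13 upregulated genes had a median GC content of 54.5% (50.0% to 58.5%), those of the 14 downregulated genes 45.7% (39.7% to 56.3%) and those of the genes not called 48.9%. Over all genes tested, the medians were 51.5% for those higher and 47.7% for those lower. Across the 60 genes GC content and log2 fold change had a Pearson r of 0.59 (0.54 without mouse B), and across 10297 tested genes 0.19 (0.09 without mouse B). The deviation of mouse B from the other bigenic mice also followed GC content, with r = 0.47 across the 60 genes and 0.37 across all. These are correlations across genes of the same libraries, and genes are not independent replicates. After a trend on GC content and exon length was removed from each mouse, 12 of the 60 genes were higher and 14 lower. Of the 10297 genes in that fit, over which the trend was taken, 2086 were higher and 1886 lower. In the set, 1 upregulated and 1 downregulated gene lost the call and 1 gene not called before gained it.

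**Figure D4:**
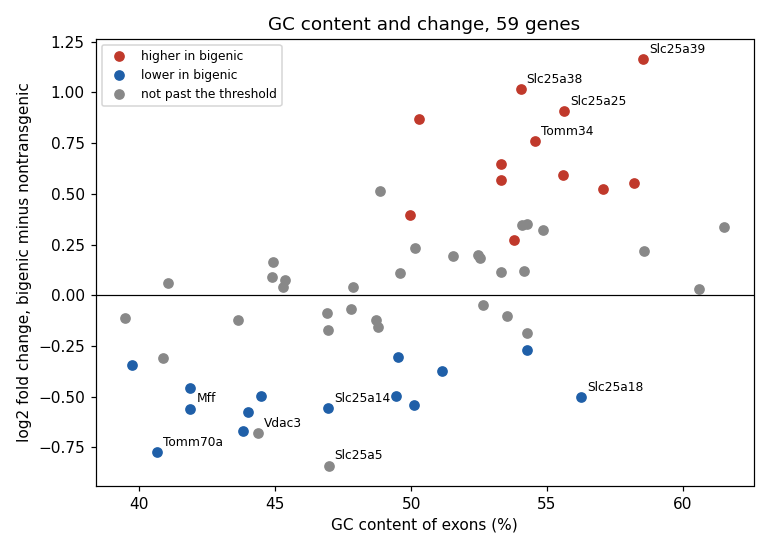
Log2 fold change (bigenic minus nontransgenic, y axis) against the GC content of the exons (x axis, %) for 59 of the 60 genes, coloured by call as higher, lower or not past the threshold. The upregulated genes lie between 50.0% and 58.5% and most downregulated genes lie further left, with Slc25a18 (56.3%) and Slc25a11 as downregulated genes at high GC content.

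Reads that map to more than 1 place were left out of the deposited values, and this touches members with near copies in the genome. Of the 50-base windows in a gene's exons, the share that occurred once in the genome was 100% for 31 of the 60 genes and under 90% for 7. Those were Vdac3 (24.1%), Tomm5 (53.0%), Slc25a5 (60.2%), Phb (68.6%), Tomm22 (75.0%), Slc25a40 (79.3%) and Slc25a36 (82.8%), so their levels are uncertain. Exons of 16 genes were overlapped by another gene. No source used here says that strand was used in counting, and reads from Tomm70a and Nit2, Slc25a26 and Lrig1, Slc25a25 and Naif1, or Slc25a11 and Rnf167, which lie on opposite strands, may not have been told apart. In mm9 coordinates, Tomm70a spans 57121827 to 57156818 on chromosome 16 (plus strand), Vdac1 52174362 to 52202899 on chromosome 11 (plus strand), Slc25a39 102264299 to 102269260 on chromosome 11 (minus strand) and Slc25a38 120019492 to 120033622 on chromosome 9 (plus strand).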

How the data were processed

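Per the study's methods and processing notes, the authors removed adaptors (cutadapt), aligned reads to mm9 (Bowtie 0.12.7), and counted those with a single mapping per gene (bedtools). The deposited signal is these counts scaled per mouse and rounded to whole numbers, a scaling that is not given in the sources used here, so the main test was not one for raw counts. The worth of 1 read was estimated from the spacing of the integers (8 of 8 simulated columns were recovered). As an alternative, voom, a limma method for counts, was run on reads approximated with it (14 genes higher and 14 lower). The second deposited table, of DESeq2 results, gave gene symbols alone, and its means, fold changes and p-values were not used.

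Features with at least 10 RPM in at least one mouse were tested on log2(value + 1) with limma 3.58.1 (lmFit, eBayes with trend) in R 4.3.3, Benjamini-Hochberg threshold 0.05. The test was checked on simulated data. Columns carry animal numbers and show the group alone. The labels do not name litters, so p-values measure the spread between these 8 mice. Exons, GC content and 50-base windows came from GENCODE on the mm9 genome, and promoters from RefSeq (GRCm38.p6). Python 3.11.15 was used.

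The genes and lists were chosen with earlier results of these data known. A called member and a gene of the other transporters are not reported here singly and are not drawn, but count in the totals. Every other member below the threshold was named, along with the most abundant member of roles with none, the highest and lowest member per kb, and the first 2 genes by adjusted p-value in each direction of each list. Uncalled members were named after their values were seen. Alternatives changed the pseudocount, filter, scaling, weights, threshold, depth model, GC content and mice.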

Additional observations from a re-analysis of the deposited data

Results flagged for a closer look

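Of 120 groups of 4 mice (60 genes in bigenic and nontransgenic mice), 8 held a mouse far from the other 3, where chance gives about 1 in 20 groups. Mouse B, the bigenic mouse with the fewest reads, was that mouse in 6. It was the high one for Timm44 (1288 normalized counts, others 835 to 893), Tomm34 (2502, others 2207 to 2244), Slc25a39 (2405, others 1120 to 1162) and Samm50 (2316, others 1417 to 1438). It was the low one for Slc25a15 (292, others 438 to 465) and Mfn2 (3224, others 3767 to 3873). In bigenic mouse A, Slc25a33 was high (1266, others 984 to 1031). In nontransgenic mouse H, Slc25a17 was low (449, others 486 to 491). Of these genes Tomm34, Slc25a39 and Slc25a33 were called higher. Tomm34 and Slc25a39 were also called higher without mouse B, and Slc25a33 was not without mouse A (log2 fold change 0.19, limma adjusted p = 0.0864).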

How the results depend on the processing

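No paired analysis was possible because the columns carry animal numbers that match no replicate number in the labels. With limma array weights, which give mouse B little weight, 23 genes were higher and 18 lower. In this setting 6455 features were called in place of 3796, with 3611 higher and 2844 lower. At an adjusted p below 0.01, 10 were higher and 5 lower. Of all 10588 features, 2057 were called, with 1195 higher and 862 lower, so the share of lower genes was near that of all features. With each mouse left out in turn, 12 to 16 genes were higher and 5 to 17 lower, and the median log2 fold change was 0.02 to 0.07. Over all features, 1512 to 2683 were higher and 1113 to 2134 lower in these fits. The lower count was 5 without mouse E, 9 without mouse F and 7 without mouse G, where 1148, 1160 and 1113 of all features were lower. The share of lower genes in the set was thus below that of all features without mouse E and above it without mouse F. The cause of these smaller counts was not tested. Of the 27 called genes, 17 were called in all 8 of these fits and none changed sign. With other pseudocounts, other scalings or voom, 12 to 14 genes were higher and 12 to 14 lower. Of the 10588 features, 2004 to 2256 were higher and 1511 to 1845 lower in these settings. With 10 RPM asked of every mouse, 13 of 54 genes were higher and 14 lower, beside 1971 and 1417 of 8980 features. Without a filter, 12 genes were higher and 11 lower, beside 2229 and 1924 of all features with a value above 0 in any mouse. The fit without the GC and length trend is given above.

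Signs turned only for genes that were not called. With array weights the log2 fold changes were 0.0167 (Timm17a), 0.0325 (Slc25a12), -0.027 (Timm10), 0.0282 (Phb2), 0.20 (Slc25a36) and -0.0537 (Tomm6), and with the GC and length trend removed -0.13 (Slc25a1). Leaving out a mouse gave -0.0308 to 0.19 for Slc25a15, -0.0883 to 0.0065 for Phb2, -0.26 to 0.10 for Slc25a36, -0.0273 to 0.20 for Tomm6, -0.0611 to 0.21 for Slc25a1 and -0.0834 to 0.24 for Slc25a32. Depth limits the values of mouse B most, where 3 reads are worth 6.20 normalized counts.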
